A study of Mus musculus with 12 samples.

Results

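Wild-type mice fed a high-fat diet were compared with wild-type mice fed normal chow, in RNA from the immune cell fraction of the liver. The comparison uses 6 of the 12 libraries of the series, taken by their sample titles. Each group was described as 3 mice, and 1 library was deposited for each of its replicates. The groups were WT-NCD (normal chow diet, replicates 1 to 3) and WT-HFD (high-fat diet, replicates 1 to 3). The mice were male, of the strain labelled C57BL/6 (a C57BL/6J background in the methods) and carried no engineered allele. They were 8 to 10 weeks old when feeding began and stayed on their diet for 12 weeks. The high-fat diet held 20% fat and 0.15% cholesterol by weight. The other 6 libraries, from caspase-11 knockout mice (strain B6.129S4(D2)-Casp4tm1Yuan/J) on the same 2 diets, entered the estimate of the spread and the test of diet by genotype and are not otherwise described. By the methods, the chow and the high-fat diet also differed in protein and carbohydrate content. A diet model of this kind changes these components, fat, cholesterol and body weight together, so the part of any single component cannot be told apart.

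The liver holds a large resident macrophage population, the Kupffer cells, which sit in the sinusoids, take up particles, lipoproteins and dying cells from portal blood and carry complement components and pattern recognition receptors. Around them are sinusoidal endothelial cells, natural killer (NK) cells, T and B lymphocytes and antibody-secreting plasma cells. Long-term lipid loading of the liver is known to alter Kupffer cells and to bring in monocyte-derived macrophages, which can take over Kupffer cell genes. The question of this comparison is which genes of the fraction differ between the diets, with most room given to genes and functions outside the macrophage marker lists used by the study.

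Each library gave 1 TPM value, a length-corrected share of all transcripts, for each of 40840 genes. Protein-coding genes were rescaled to the same total in every library, so levels below are rescaled TPM, and values under 6.79 were raised to that common floor. Fold differences are on the log2 scale of these values, WT-HFD minus WT-NCD, with the standard error (SE) of the fit. The labels give a nominal read number for all samples alike but no counts, so the reads behind a single value are unknown, and precision comes from the spread between libraries. WT-NCD replicate 3 stood apart before any comparison. Its log2 values correlated with those of the other 5 wild-type libraries at r between -0.16 and -0.11 across genes, whereas those 5 correlated with each other at 0.93 to 0.98. Its values also followed exonic gene length, with a Spearman correlation across genes of -0.77, against 0.26 to 0.28 in the others, and 20905 protein-coding genes lay above the deposited floor against 10251 to 11741. The main results therefore rest on WT-NCD replicates 1 and 2 (n = 2) against WT-HFD replicates 1 to 3 (n = 3), and what replicate 3 changes is given for the called genes and, near the end, for the list medians. Where replicate 3 is quoted, its levels carry little contrast between genes: over the 64 genes named by rule they spanned 9.24 to 183 rescaled TPM. A level there near the other chow libraries, or a call kept with it, is therefore no added support.

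The labels call the cells hepatic macrophages. Macrophage markers were present in all 5 libraries: Adgre1 (the F4/80 antigen) was at 32.4 and 70.5 rescaled TPM in WT-NCD and at 221, 189 and 208 in WT-HFD, and Csf1r, the receptor for macrophage colony-stimulating factor, was at 81.4 and 173 against 279, 272 and 450.5. Markers of other cells were present too. Ms4a1 of B cells stood at 493 and 268 against 194, 203 and 212, Cd3e of T cells at 212 and 250.3 against 111, 108 and 176, and Clec4g of sinusoidal endothelium at 336 and 154 against 599, 364 and 772. Albumin (Alb), the main hepatocyte transcript, was the most abundant of the named genes at 54480 and 28600 in WT-NCD and 49440, 47020 and 24100 in WT-HFD. The 20 hepatocyte genes together made up 10.7% and 6.65% of the protein-coding total in WT-NCD and 13.9%, 13.2% and 6.45% in WT-HFD, so their share overlapped between the diets. The material is therefore described here as an immune cell fraction with hepatocyte and endothelial RNA, in which fewer cells of a type and less RNA per cell cannot be told apart.

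Of 10845 protein-coding genes tested, 129 (1.19% of those tested) passed an adjusted p of 0.05 with limma, 77 higher (0.71%) and 52 lower (0.479%) on HFD. The calls ranged from 1.37 to 5.22 on the log2 scale among genes that rose and from -4.87 to -1.12 among those that fell, while the median over all genes tested was 0.05. At an unadjusted p under 0.05 there were 1935 genes, 17.8% of those tested, 1133 higher and 802 lower. Over all genes tested, 52.9% had a positive difference. Counts of signs within the lists below stand beside that share and were not tested. The WT-HFD and WT-NCD values did not overlap for any of the 129 called genes, but this was true of 48.8% of all genes tested. Among the calls, 16 genes that rose were at the floor in both fitted WT-NCD libraries, and 8 that fell in all WT-HFD libraries. A group held at the floor shows no spread, so for these genes the floor affects the SE and p as well as the size. Putting WT-NCD replicate 3 back left 31 calls (0.286%), of which 20 rose (0.184%) and 11 fell (0.101%). The 2 sets of calls had 30 genes in common. All 129 kept their sign. The remaining gene, Hecw2, a ubiquitin ligase, was named for this reason alone, with a log2 difference of 1.85 in that fit.

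Leaving out any single library changed the number of calls. Dropping chow replicate 1 gave 8 and dropping chow replicate 2 gave 3, while dropping HFD replicates 1, 2 and 3 gave 19, 18 and 53, with a lone WT-NCD library assumed to vary like the other groups. Of the 129 genes, 2 were called in all 5 of these fits, Cd5l and Vsig4, and 80 in none of them. The 3 genes called without WT-NCD replicate 2 were Cd5l, Vsig4 and Reg3b, a secreted antimicrobial lectin that was not among the 129. The split of the calls also moved with the scaling: 20 higher and 191 lower for TPM not rescaled, where the median over all genes was -0.74, 138 higher and 159 lower with median-ratio scaling, and 43 higher and 18 lower when values at the deposited floor were set to 0 and a pseudocount of 1 was added. The share of squared distance that lay between the diets, over all genes tested and 5 libraries, was 59.1% (exact permutation test over 10 splits, p = 0.1, the smallest this design allows). With replicate 3 it was 30.0% (exact permutation p = 0.1).

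**Figure D1:**
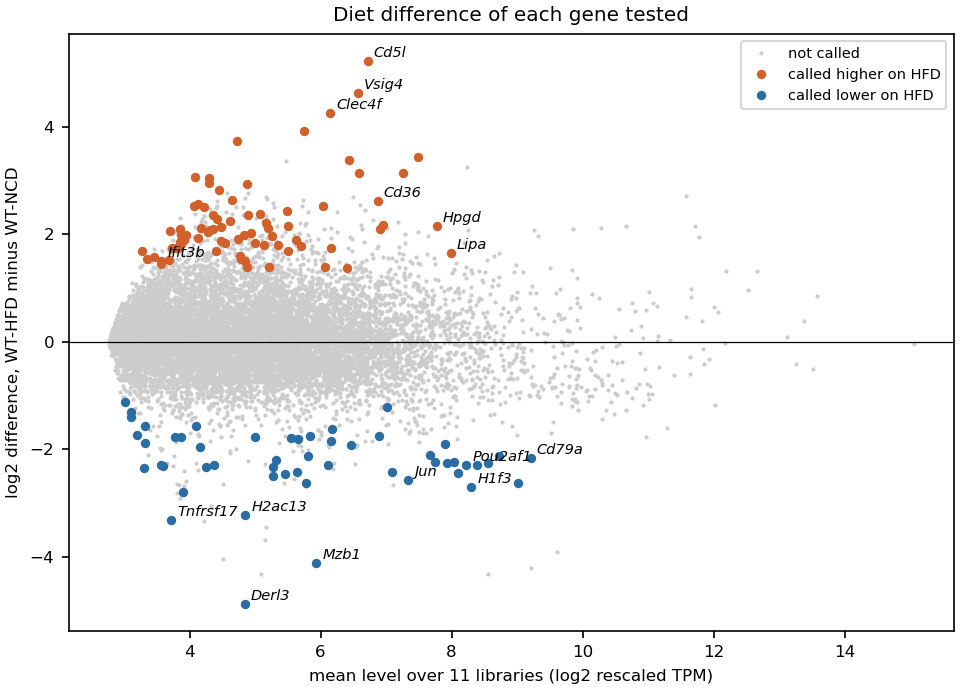
Log2 difference between WT-HFD and WT-NCD (vertical axis) against the mean log2 rescaled TPM over the 11 fitted libraries (horizontal axis) for the 10845 genes tested, each point a gene. The 77 genes called higher lie above 1.37 and the 52 called lower reach from -1.12 to -4.87.

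Genes of Kupffer cell identity had the highest median of the cell type and pathway lists. Of 15 identity genes tested, 8 were called higher and none lower, with a median log2 difference of 2.15 against 0.05 over all genes, and 5 of the 8 were still called with replicate 3. The list holds genes known from earlier results of these data, so its direction is a description. Its called genes Vsig4, Timd4 and Nr1h3 also stand in lists below, so those counts overlap with this one. Cd5l, a secreted scavenger protein of tissue macrophages, stood at 25.4 and 11.4 rescaled TPM in WT-NCD and at 778, 476 and 683 in WT-HFD. It was low in both chow libraries and high in every HFD library, without overlap, a log2 difference of 5.22 ± 0.38 (SE, adjusted p = 8.86e-05), and replicate 3 lay between at 45.1. Vsig4, the complement receptor CRIg (GRCm38.p6 chrX:96247201-96293438), was at 19.1 and 14.2 against 596, 314 and 350.0, a difference of 4.61 ± 0.41 (adjusted p = 0.000364) that ranged from 4.33 to 4.83 when single libraries were left out. Clec4f, a lectin used as a Kupffer cell marker, went from 16.3 and 11.9 to 410.2, 167 and 274, a difference of 4.25 ± 0.47 (adjusted p = 0.00252). For these 3 genes replicate 3 lay below all WT-HFD libraries, and the differences with it were 4.75, 3.96 and 3.94, all called.

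The summed level of the Kupffer list was 0.0410% and 0.0282% of the protein-coding total in WT-NCD and 0.343%, 0.199% and 0.269% in WT-HFD. Of 13 general macrophage and monocyte genes tested, none was called (limma), 3 were higher at an unadjusted p under 0.05, and their median was 0.77. Lyz2, the lysozyme of myeloid cells and the most abundant member, was at 1786 and 9313 in WT-NCD and 2166, 4059 and 4231 in WT-HFD, so the chow libraries alone spanned the HFD range. Monocyte genes, 14 tested, had no call, 1 higher and 1 lower at an unadjusted p under 0.05, and a median of -0.53, and their most abundant member Ly6c2 overlapped between diets at 687 and 1710 against 890.4, 1435 and 1499. In dendritic cell genes there was no call among 15, 6 were higher and 1 lower at an unadjusted p under 0.05, and the median was 0.82. Of the 15 differences, 12 were positive. Irf8, the lineage factor with the highest level, was among the 3 negative ones, at 234 and 270.4 against 187, 167 and 308. Of the 35 genes on the published macrophage and caspase-11 lists, 34 were tested and 14 were called, all higher: 7 of 14 NASH-associated markers, 6 of 10 markers of healthy macrophages and 1 of 10 caspase-11 pathway genes. The study used those lists on these samples, so the counts are not independent evidence of direction. Casp4, which encodes caspase-11, was at 35.9 and 41.6 against 29.6, 37.8 and 46.4, a difference of -0.05 ± 0.50.

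**Figure D2:**
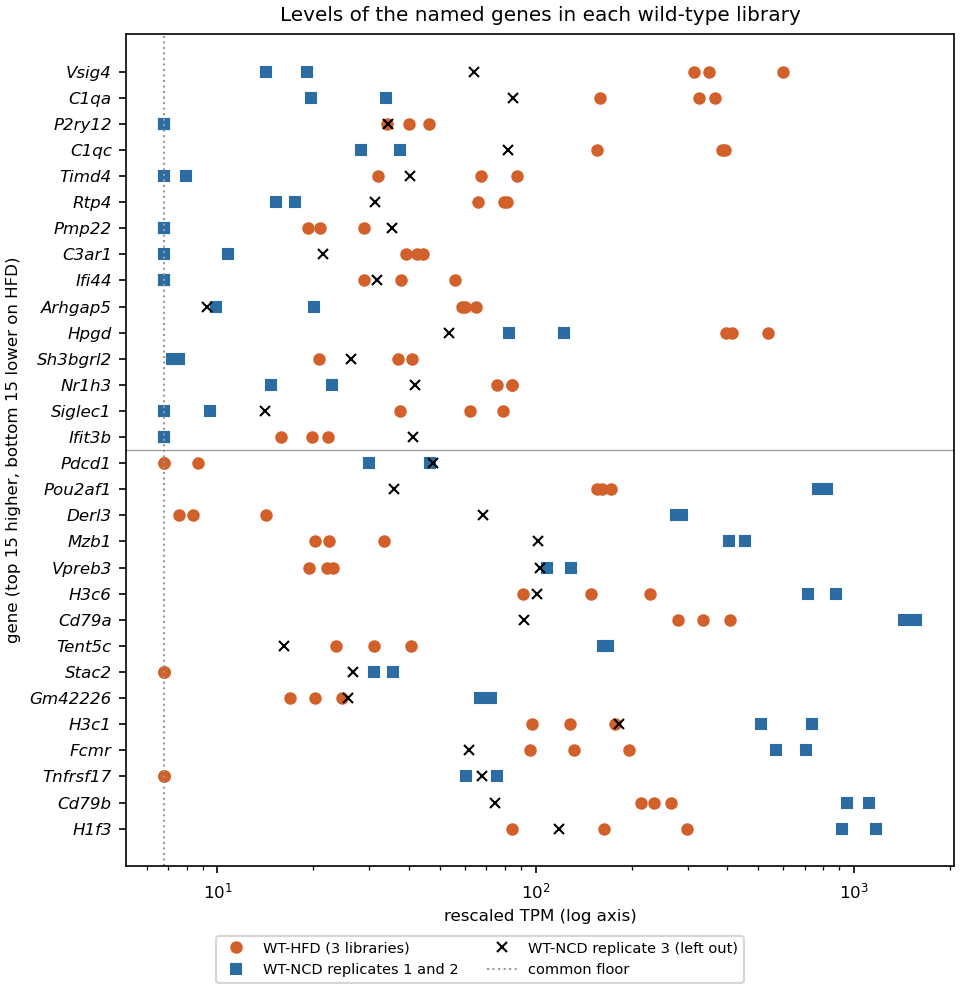
Rescaled TPM (horizontal log axis) of the 15 genes of smallest p called higher (upper block) and the 15 called lower (lower block), outside the published lists, in each wild-type library. Squares are WT-NCD replicates 1 and 2, circles the 3 WT-HFD libraries, crosses WT-NCD replicate 3 and the dotted line the common floor of 6.79. Squares and circles are separate in every row, and crosses keep between 9.24 and 183.

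Among 21 genes of complement and its receptors tested, 4 were called higher and none lower, with a median of 0.74. C1qa, a chain of the C1q recognition molecule that starts the classical pathway (chr4:136895916-136898844), was at 33.7 and 19.6 rescaled TPM in WT-NCD and at 366, 159 and 325 in WT-HFD, a difference of 3.37 ± 0.41 (adjusted p = 0.00379). C1qc, a second chain of that molecule, was at 37.6 and 28.2 against 394, 156 and 385 (3.14 ± 0.42, adjusted p = 0.00587). Their call held with replicate 3, at 2.80 and 2.70. C3ar1, the receptor for the C3a anaphylatoxin, rose from 10.8 and 6.79 to 44.3, 42.4 and 39.0 (2.29 ± 0.37, adjusted p = 0.0195), tight within HFD, and was not called with replicate 3 (1.84). The fourth was Vsig4.

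Of 23 receptors for scavenging and for clearing dying cells, 3 were called higher and 13 were higher at an unadjusted p under 0.05, no member had a negative difference, and the median was 1.05. Timd4, a phosphatidylserine receptor of resident macrophages, was at the floor or near it in WT-NCD (7.96 and 6.79) and at 87.0, 31.8 and 67.5 in WT-HFD, a difference of 2.96 ± 0.42 (adjusted p = 0.00935). Axl, a receptor tyrosine kinase that binds apoptotic cells through Gas6, went from 21.0 and 18.4 to 107, 76.9 and 142 (2.43 ± 0.44, adjusted p = 0.0319). The fatty acid and oxidized lipoprotein receptor Cd36 rose from 46.6 and 33.2 to 208, 228 and 293, with 2.61 ± 0.48 on the log2 scale (adjusted p = 0.0319). Cd36 and Axl were called with replicate 3 too, at 2.88 and 2.50, and Timd4 was not (2.13). When single libraries were left out, Cd36 and Axl were called in none of the 5 fits and Timd4 in the 3 that left out an HFD library, with differences of all 3 genes between 2.21 and 3.54.

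Cd36 is also a gene of sinusoidal endothelium and muscle. Of 20 sinusoidal endothelial genes tested, Cd36 was the only call, yet all 20 differences were positive, with a median of 1.29. Their summed level was 0.374% and 0.208% of the protein-coding total in WT-NCD and 0.692%, 0.465% and 0.841% in WT-HFD, so it moved with the Kupffer genes. Its part in the differences of Cd36 and of the adhesion molecule Vcam1 was not tested. Vcam1, which binds leukocyte integrins and is made by endothelium and by Kupffer cells, rose from 19.9 and 16.1 to 73.2, 55.4 and 84.0 (1.97 ± 0.36, adjusted p = 0.0319), was not called with replicate 3 (1.77), and was the only call among 21 genes for integrins and adhesion, whose median was 0.52.

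Genes that move cholesterol were partly higher. Of 20 genes for sterol efflux and targets of the liver X receptors, 2 were called higher and none lower, 8 were higher at an unadjusted p under 0.05, and the median was 0.74. Nr1h3, the liver X receptor alpha, a sterol-sensing nuclear receptor (chr2:91184061-91202829), was at 22.9 and 14.7 in WT-NCD and at 84.5, 75.7 and 84.0 in WT-HFD (2.15 ± 0.37, adjusted p = 0.0313). The HFD libraries lay close together and above both chow libraries. Nr1h3 is also on the Kupffer list, and was the single call among 33 nuclear receptors and lineage factors (median 0.38). Lipa, the lysosomal acid lipase that frees cholesterol and fatty acids from taken-up lipoproteins, rose from 155 and 132 to 483, 492 and 383 (1.65 ± 0.32, adjusted p = 0.0364), and was the single call among 39 lysosomal genes (median 0.19). Neither Nr1h3 nor Lipa was called with replicate 3, where the differences were 1.75 and 2.39. Sterol synthesis and uptake genes had no call among 22 (limma) but leaned lower, with 16 differences negative and 6 positive. At an unadjusted p under 0.05, 1 was higher and 7 were lower, and the median was -0.38 (-0.39 with replicate 3). Fatty acid uptake and oxidation had Cd36 as the only call among 25 and a median of 0.45. In fatty acid synthesis and triglyceride storage there was no call among 18 (2 higher and none lower at an unadjusted p under 0.05, median 0.11), and its most abundant member Elovl5, a fatty acid elongase, was at 174 and 159 against 329, 435 and 373 without a call.

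Other genes among the 15 of smallest p that rose have varied known roles. Hpgd, the enzyme that inactivates prostaglandins, was at 122 and 82.5 rescaled TPM against 538, 396 and 414 (2.15 ± 0.37, adjusted p = 0.0285), the highest level among them on HFD. Siglec1, the sialoadhesin of resident macrophages, was at 6.79 and 9.45 against 79.0, 37.5 and 62.1 (2.83 ± 0.49, adjusted p = 0.0313). Each had its HFD values well above chow, and with replicate 3 Siglec1 was called (2.55) and Hpgd was not (2.45). Arhgap5, a GTPase-activating protein, went from 20.1 and 9.93 to 58.5, 65.0 and 60.0 (2.12 ± 0.36, adjusted p = 0.0274) and was called with replicate 3 (2.32). Sh3bgrl2 went from 7.20 and 7.58 to 40.9, 37.0 and 20.8 (2.09 ± 0.36, adjusted p = 0.0313) and was not called with replicate 3 (1.48). P2ry12, a purinergic receptor of microglia and some tissue macrophages, and Pmp22, a peripheral myelin protein, were at or below the floor in both chow libraries and at 46.3, 40.0 and 34.1 and at 28.9, 19.3 and 21.1 in WT-HFD, so the floor sets the size of their differences (2.55 and 1.74). In replicate 3 they were at 34.3 and 35.3, and neither was called with it (1.75 and 0.93). Pf4, a platelet chemokine also made by macrophages, was at 6.79 and 12.7 against 33.4, 39.5 and 28.6 (1.85 ± 0.39, adjusted p = 0.0412) and at 156 in replicate 3, above every HFD library, and it was not called with it (0.48). It was the only call among 7 platelet genes (median 0.37) and among 28 cytokines and chemokines (median 0.15). Further called genes, picked after their values were seen, included the BMP and activin receptors Bmpr2 (51.8 and 45.1 against 178.4, 237.2 and 244.5 rescaled TPM) and Acvr2a (16.7 and 12.8 against 39.8, 46.4 and 38.6), the interleukin-7 receptor Il7r (48.8 and 49.1 against 95.1, 127 and 170.0) and Tcf7l2, a transcription factor of the Wnt pathway (7.74 and 8.76 against 34.1, 35.2 and 49.3). None of these 4 was called with replicate 3, where the differences were 3.05, 1.46, 1.77 and 1.98.

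Some interferon-responsive genes were higher on HFD. These genes carry, in many cases, an interferon-stimulated response element (ISRE) to which STAT and IRF factors bind after interferon signalling. Of 25 interferon-stimulated genes tested, 5 were called higher and none lower, 15 were higher and 1 lower at an unadjusted p under 0.05, and the median was 1.06. None was called with replicate 3, where the median was 0.71. Ifi44 was at or below the floor in both chow libraries and at 28.8, 55.7 and 37.8 in WT-HFD (2.53 ± 0.41, adjusted p = 0.0199, its size set by the floor). Ifit3b, of the family that binds foreign RNA ends, was likewise at the floor in WT-NCD and at 22.2, 19.8 and 15.9 in WT-HFD (1.49 ± 0.26, adjusted p = 0.0316). In replicate 3 these genes were at 31.8 and 41.2, within or above the HFD range, and the differences with it were 1.77 and 0.60. The other 3 calls were Ifit1, Ifit2 and the RNA sensor gene Ifih1. Rtp4, a receptor transporter protein known to be induced by interferon and outside the list, rose from 15.3 and 17.5 to 66.1, 81.2 and 79.7 (2.20 ± 0.34, adjusted p = 0.0137) and was not called with replicate 3 (1.89).

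The large GTPases and immunity-related GTPases that interferon gamma induces, which attack vacuoles around microbes, were grouped after their values were seen and are given as counts without a test. Of 21 tested, 6 were called higher and none lower, all 21 differences were positive, from 0.84 to 2.52, and the median was 1.39. The 6 were Iigp1 (2.52), Gm4951 (2.50), Gbp6 (1.92), Irgm2 (1.89), Gbp7 (1.70) and Gbp10 (1.54), on the log2 scale. With replicate 3 the median was 1.56 and 2 were called, Iigp1 (2.52) and Gbp7 (1.86). Iigp1 was at 30.1 and 22.7 against 168, 164 and 123 rescaled TPM and Irgm2 at 22.0 and 26.1 against 75.4, 107 and 87.0, both without overlap. Genes of this family lie in clusters and resemble each other, so reads can be shared between neighbours.

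Promoter stretches of called interferon-responsive genes are shown because these genes were called higher. They come from RefSeq (build GRCm38.p6), run 5′ to 3′ along the gene's strand, end before a RefSeq transcript start, lie outside the annotated bounds of the gene, and have in capitals each match, on either strand, to the 9-letter ISRE core GAAANNGAA, where N is any base. A match on the opposite strand shows as its reverse complement, and where matches overlap the capitals run together.
Ifit1 (chr19:34640755-34640838, plus strand): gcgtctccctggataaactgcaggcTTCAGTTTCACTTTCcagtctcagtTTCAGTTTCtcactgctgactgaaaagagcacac
Ifih1 (chr2:62646334-62646392, minus strand): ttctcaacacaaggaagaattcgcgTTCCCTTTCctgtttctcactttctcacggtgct
Irgm2 (chr11:58214888-58214946, plus strand): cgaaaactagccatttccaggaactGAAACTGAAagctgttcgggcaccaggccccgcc
Ifit1 held 3 matches and Ifih1 and Irgm2 held 1 each within 250 bases before that start. The search took the transcript starts that the RefSeq table lists, some of which, as for Ifit3b, Ddx60 and Vpreb3, lie inside the annotated bounds of the gene. Of 8794 genes tested that had a promoter entry, 677 (7.70%) held this core in those bases, against 9 of 63 called higher (14.3%) and 5 of 40 called lower (12.5%). The 9 were Ddx60, Folr2, Gbp7, Ifih1, Ifit1, Ifit3b, Irgm2, Slc7a8 and Timd4, of which Folr2 and Gbp7 are on the published lists and are named here after their values were seen. A match is a description of these letters and no measure of binding.

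Several plasma cell and B cell genes fell. Plasma cells secrete antibody and depend on a large endoplasmic reticulum (ER). Of 10 plasma cell genes tested, 4 were called lower and none higher, all 10 differences were negative, and the median was -1.93 (-0.98 with replicate 3). Derl3, which helps remove misfolded proteins from the ER (chr10:75893398-75895941), was at 288 and 275 rescaled TPM in WT-NCD and at 7.57, 8.37 and 14.2 in WT-HFD. That was the largest fall among the 129 genes, -4.87 ± 0.73 on the log2 scale (adjusted p = 0.0128), and it was called with replicate 3 (68.4 rescaled TPM, difference -4.19). Mzb1, a chaperone of antibody assembly, was at 455 and 405 against 20.2, 22.3 and 33.4 (-4.12 ± 0.63, adjusted p = 0.0139). Tnfrsf17, the plasma cell survival receptor BCMA, stood at 75.6 and 60.4 in WT-NCD. In all 3 HFD libraries it was at or below the floor (-3.31 ± 0.62, adjusted p = 0.0327, size set by the floor). Replicate 3 was at 67.6, a level within its narrow range over genes. The fourth was Prdm1, the factor that drives plasma cell differentiation, at 49.4 and 54.9 against 11.1, 9.77 and 22.8 (-1.95 on the log2 scale, adjusted p = 0.0498). With replicate 3, Derl3 and Tnfrsf17 were called and Mzb1 (-3.43) and Prdm1 (-1.13) were not. The summed level of the 10 genes was 0.997% and 0.805% of the protein-coding total in WT-NCD and 0.0896%, 0.116% and 0.130% in WT-HFD, and in replicate 3 it was 0.0427%.

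Of 15 B cell genes tested, 4 were called lower and none higher, 11 were lower at an unadjusted p under 0.05, all 15 differences were negative, and the median was -1.68. With replicate 3 the median was -0.42 and 1 was called. Vpreb3 (chr10:75943024-75949657) was at 129 and 108 against 22.1, 19.4 and 23.0 (-2.47 ± 0.42, adjusted p = 0.0274). In replicate 3 Vpreb3 was at 103 and its call held, which is no added support given how little that library varies between genes. The signalling chains of the B cell receptor, Cd79a and Cd79b, were among the most abundant genes that fell. Cd79a was at 1567 and 1431 against 335, 279 and 408 (-2.15 ± 0.39, adjusted p = 0.0319), and Cd79b at 1115 and 950.4 against 235, 214 and 265 (-2.12 ± 0.39, adjusted p = 0.0327). Fcmr, the receptor for immunoglobulin M, was at 706 and 568 against 131, 96.0 and 196 (-2.23 ± 0.41, adjusted p = 0.0319). Pou2af1, the coactivator that B cell promoters use with octamer factors, was at 819 and 771 against 161, 156 and 173 (-2.29 ± 0.34, adjusted p = 0.0119), with each group tightly spread. For Cd79a, Cd79b, Fcmr and Pou2af1 replicate 3 lay at 91.8, 74.7, 61.7 and 35.8, below every HFD library, and their calls were lost with it at -0.81, -0.86, -1.11 and -0.80. The B cell list summed to 0.637% and 0.503% of the total in WT-NCD and to 0.168%, 0.144% and 0.205% in WT-HFD, and in replicate 3 to 0.0605%, below every HFD library.

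Tent5c, a cytoplasmic poly(A) polymerase known to stabilize antibody transcripts in plasma cells, moved the same way, from 162 and 169 to 23.5, 31.0 and 40.5 (-2.42 ± 0.44, adjusted p = 0.0319). Replicate 3 was at 16.2, below every HFD library, and Tent5c was not called with it (-1.30). A group for protein translocation, folding and quality control of the ER, put together after the values were seen, had 6 of 46 genes called lower, none higher, and a median of -0.52. With replicate 3 the direction turned, with a median of 0.09 and 1 call, Derl3. The 6 were Derl3, Ckap4, Tram2, Txndc5, Sec11c and Syvn1. Ckap4, an ER sheet protein, was at 106 and 113 against 19.3, 14.7 and 26.2, and Txndc5, a disulfide isomerase, at 619 and 560.0 against 117, 155 and 139, and their differences went from -2.49 and -2.11 to -1.89 and -0.67 with replicate 3. The general heat shock and unfolded protein response list, of 22 tested, had no call (limma), 1 higher and 7 lower at an unadjusted p under 0.05 and a median of -0.45. Its most abundant member Hspa8, the constitutive HSC70 chaperone, overlapped at 1652 and 2126 against 1136, 1299 and 2029. Of the 22 differences, 19 were negative and 3 positive. The list summed to 1.62% and 1.77% of the protein-coding total in WT-NCD and to 0.795%, 0.716% and 0.936% in WT-HFD, without overlap. In replicate 3 the sum was 0.0963%, below every HFD library, and with it the median was 0.45.

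**Figure D3:**
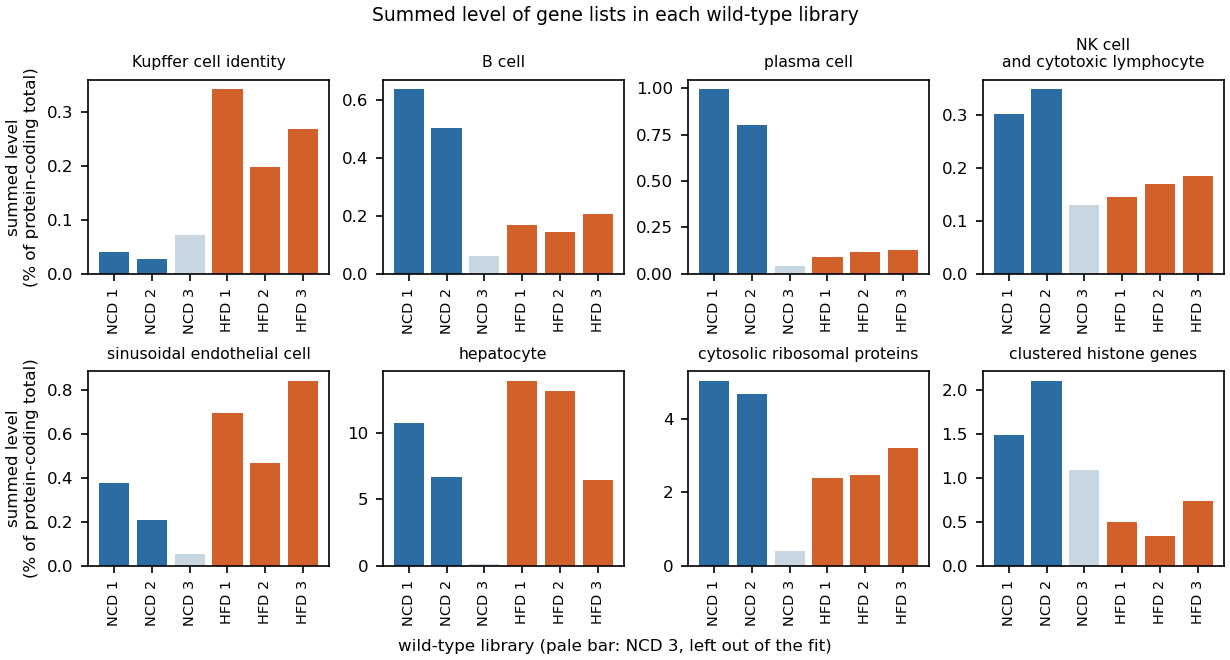
Summed level of 8 gene lists as a percentage of the protein-coding total (vertical axis, from 0, own scale in each panel) in each of the 6 wild-type libraries (horizontal axis), with no error bar because each bar is 1 library. Kupffer and sinusoidal endothelial bars are higher, and B cell, plasma cell, NK cell, ribosomal protein and histone bars lower, in the 3 HFD libraries than in chow 1 and 2, whereas hepatocyte bars overlap.

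Of 18 NK and cytotoxic lymphocyte genes, Prf1, which encodes the pore-forming protein perforin, was the only call, at 138 and 187 against 52.6, 31.8 and 53.3 (-1.85 ± 0.38, adjusted p = 0.0389), and it was not called with replicate 3 (-1.11). A further 8 were lower and none higher at an unadjusted p under 0.05, and the median was -0.79. Pdcd1, the inhibitory receptor PD-1 of activated lymphocytes (chr1:94038305-94052553), had the smallest p of all genes that fell. It was at 30.0 and 46.6 rescaled TPM in WT-NCD and, for the 3 HFD libraries, at 6.79, 6.79 and 8.69, at the floor in 2 of them (-2.34 ± 0.29, adjusted p = 0.00379). Pdcd1 was at 47.6 in replicate 3 and kept its call with it (-2.44), no added support given how little that library varies between genes. Its call was lost without WT-NCD replicate 2, at a difference of -2.03. Tigit, another inhibitory receptor, was also called (25.2 and 33.5 against 6.79, 6.79 and 10.7, named after its values were seen), and with replicate 3 too (-2.05). T cell genes as a group had no call among 20 (limma), 1 higher and 1 lower at an unadjusted p under 0.05, and a median of -0.37, and Cd2, an adhesion receptor of T and NK cells, was at 323 and 231 against 106, 89.8 and 169.9 without a call (adjusted p = 0.134). Of 13 neutrophil genes, Mpo, the myeloperoxidase of granule precursors, was the only call, at 35.7 and 37.4 against 6.79, 6.79 and 8.65, near or at the floor on HFD (-2.31 ± 0.46, adjusted p = 0.0372), and it was called with replicate 3 (-2.28). The neutrophil median was -0.70.

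Histone genes gave 13 of the 52 genes that fell. Clustered histone genes lie mainly on chromosome 13, most of their transcripts lack a poly(A) tail, and the libraries were made from total RNA. This group was put together after the values were seen and is described by counts alone. Of 60 tested, 13 were called lower and none higher, 59 had a negative difference, and the median was -1.80. H3c6 (chr13:23561475-23562385) was at 719 and 878 rescaled TPM in WT-NCD and at 149.6, 91.3 and 228 in WT-HFD (-2.44 ± 0.43, adjusted p = 0.0313). H3c1 was at 511 and 738 against 128, 97.0 and 178, and the linker histone gene H1f3 at 915 and 1174 against 163, 84.0 and 298. In all 3 the HFD libraries lay below both chow libraries, and none of the 3 was called with replicate 3 (-1.45, -1.66 and -1.65), where 2 genes of the group were. Histone genes summed to 1.49% and 2.11% of the total in WT-NCD and to 0.497%, 0.338% and 0.738% in WT-HFD. Their sequences are near-identical within a class, so reads may be split between copies and single values are uncertain. The cell cycle and replication list had no call among 22 (limma), none higher and 1 lower at an unadjusted p under 0.05, and a median of -0.44, and its most abundant member Pcna was at 151 and 151 against 104, 135 and 148.

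A histone promoter stretch is shown because it holds the octamer, the letters that octamer factors read. It is printed as above (RefSeq, GRCm38.p6), with ATTTGCAT, searched on both strands, in capitals. That of C1qc holds a match to GAGGAAGT, a core of the myeloid factor PU.1, found here on the strand opposite to the gene and so printed as its reverse complement.
H2bc8 (chr13:23571316-23571373, plus strand): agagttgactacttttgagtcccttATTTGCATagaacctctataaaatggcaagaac
C1qc (chr4:136893077-136893134, minus strand): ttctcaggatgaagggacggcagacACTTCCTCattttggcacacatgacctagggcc
The octamer was in 137 of the 8794 promoters (1.56%), in none of the 63 called higher and in 2 of the 40 called lower (5.0%), Vpreb3 and H2bc8. The PU.1 letters were in 291 (3.31%), in 3 of the 63 called higher (4.76%) and in 3 of the 40 called lower (7.5%).

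The immediate early genes Jun and Jund fell. Jun, which encodes a subunit of the AP-1 transcription factor, was at 404 and 632 against 82.3, 55.3 and 136 (-2.57 ± 0.56, adjusted p = 0.0498), and Jund, a related subunit, at 441 and 573 against 121, 91.4 and 223 (-1.90 ± 0.40, adjusted p = 0.045). They were the 2 calls among 20 immediate early genes, of which 19 had a negative difference and whose median was -0.66, and neither was called with replicate 3 (-1.19 and -0.57). Of 39 genes for cytosolic ribosomal proteins none was called (limma), but all 39 differences were negative, 26 were lower at an unadjusted p under 0.05, and the median was -0.88. The most abundant, Rplp0, was at 3155 and 3459 against 1572, 1545 and 1942 (-0.98 ± 0.41, adjusted p = 0.241). With replicate 3 the ribosomal median was 0.23, so the direction of that group rests on leaving it out. The ribosomal sum was 5.03% and 4.66% of the protein-coding total in WT-NCD and 2.38%, 2.46% and 3.21% in WT-HFD. The 2 remaining genes among the 15 of smallest p that fell were Stac2, at 35.7 and 31.1 in WT-NCD and at or below the floor in all HFD libraries and called with replicate 3 (-2.15), and the predicted gene Gm42226, at 66.8 and 72.4 against 20.2, 16.9 and 24.7, which was not called with replicate 3 (-1.29).

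**Figure D4:**
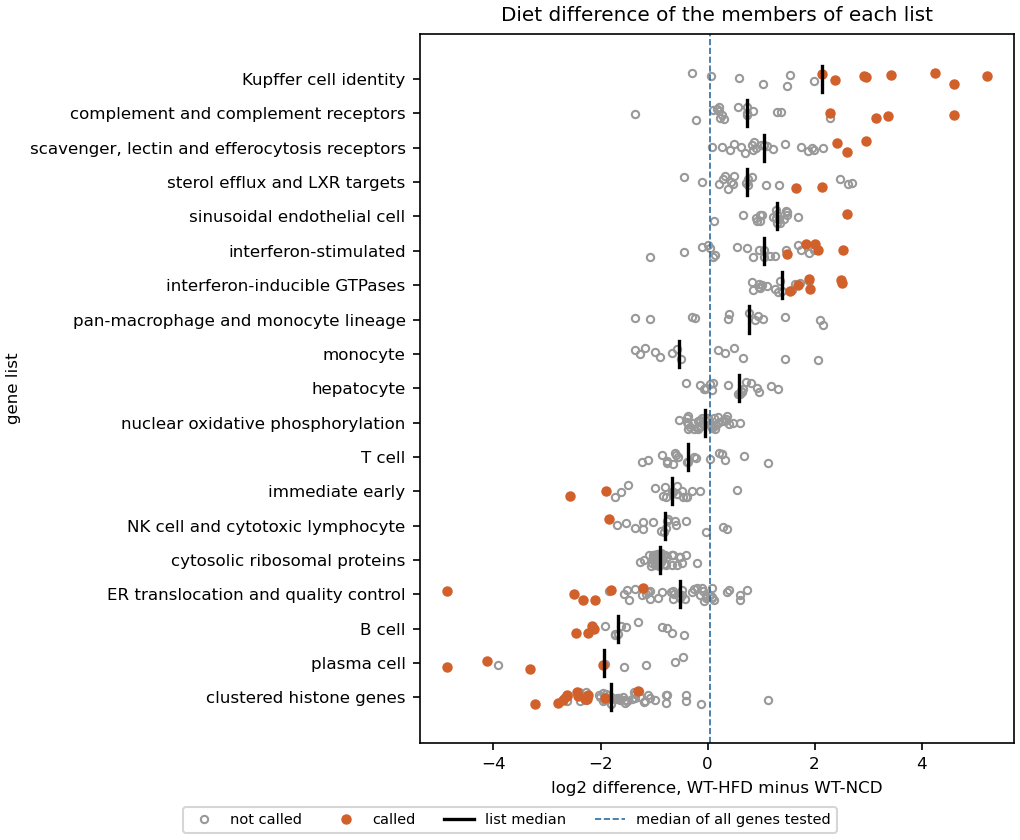
Log2 difference between WT-HFD and WT-NCD (horizontal axis) of each tested member of 19 gene lists (vertical axis, 1 row per list), filled where called. Black bars are list medians, from 2.15 for Kupffer cell genes to -1.93 for plasma cell genes, and the dashed line is the median of all genes tested, 0.05.

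Core metabolism of the fraction showed no call. Glycolysis genes, 18 tested, had a median of -0.11 with none at an unadjusted p under 0.05, and Gapdh was at 980.5 and 1178 against 769, 719.7 and 1066. The 18 genes of the tricarboxylic acid cycle had a median of 0.03 and 1 gene higher at an unadjusted p under 0.05, with citrate synthase (Cs) at 212 and 226 against 182, 166 and 212. Nuclear genes for oxidative phosphorylation, 35 tested, spanned -0.54 to 0.61 with a median of -0.04 and none at an unadjusted p under 0.05. Atp5b, the beta subunit of ATP synthase, was at 538 and 558 against 490.3, 499 and 553, with a 95% interval of -0.87 to 0.69 for the log2 difference. The values of Gapdh, Cs and Atp5b overlapped between the diets.

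No call was made with limma in the other lists either. Over all 10845 genes tested, 1133 were higher and 802 lower at an unadjusted p under 0.05, beside which the counts below stand. Iron and heme genes had 4 of 22 higher and none lower at an unadjusted p under 0.05 and a median of 0.32, with the ferritin light chain Ftl1 at 2867 and 3359 against 3667, 4618 and 3878. Genes of oxidative stress and NRF2 had 5 of 19 higher and none lower at that level, a median of 0.72, and Gpx1, a glutathione peroxidase, at 534 and 895 against 1103, 1368 and 969. MHC class II genes had 3 of 14 lower and none higher, a median of -0.50, and Cd74, the invariant chain that B cells and macrophages both express, at 7807 and 7347 against 2845, 2267 and 5873, the HFD range being wide. Toll-like receptor and NF-kB genes had 4 higher and 1 lower of 27 at that level, a median of -0.09, and Nfkbia, an inhibitor of NF-kB, at 456 and 643 against 249, 247 and 478. Clock genes, 14 tested, had 2 higher and 2 lower, a median of -0.10, and Bhlhe40 at 119 and 154 against 95.6, 202 and 210.4. Splicing and nuclear RNA-binding genes, 29 tested, had none in either direction, a median of 0.01, and Ddx5, an RNA helicase, at 792 and 867 against 548, 710.5 and 808. Among cell types, stellate and fibroblast genes had 4 of 9 higher and none lower (median 0.72, Dcn at 24.4 and 30.1 against 75.1, 62.3 and 60.8), hepatocyte genes none of 20 (median 0.59), cholangiocyte genes none of 4 (median -0.01, Spp1 at 28.2 and 49.0 against 29.9, 37.5 and 76.7), erythroid genes 1 of 5 lower (median -1.43, Hba-a1 at 1298 and 9027 against 1626, 897 and 978) and mast cell and basophil genes 2 of 7 lower (median -0.38, Kit at 62.2 and 46.3 against 106, 86.3 and 132). The erythroid value of WT-NCD replicate 2 stood far above that of the other libraries. Kit was the 1 mast cell and basophil gene with a positive difference, and the other 6 were negative.

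**Figure D5:**
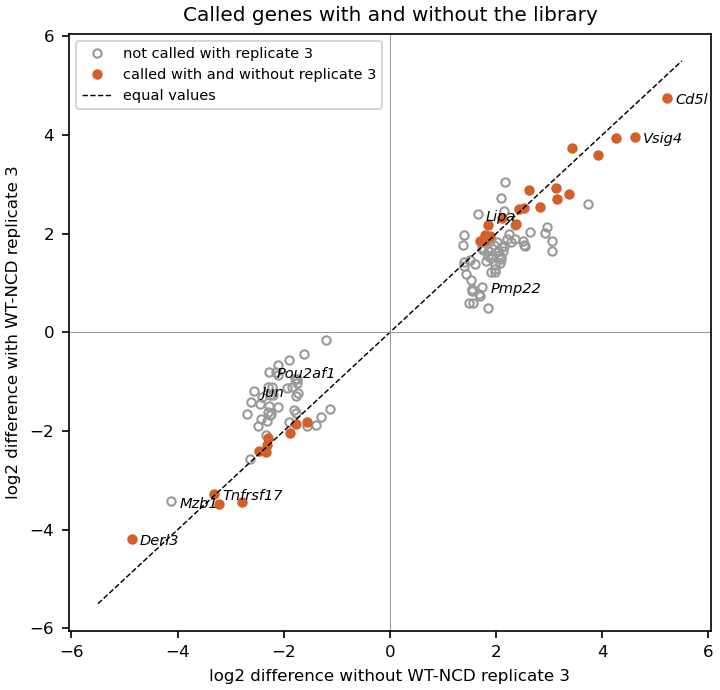
Log2 difference of the 129 called genes with WT-NCD replicate 3 in the fit (vertical axis) against the difference without it (horizontal axis), each point a gene, filled where called both ways (30 genes). All points keep their sign, and many of the genes that fell, such as Pou2af1 (-2.29 without and -0.80 with it), come closer to 0.

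The medians of several lists depended on replicate 3. With it the sign turned for monocyte genes (0.93), glycolysis (0.48), oxidative phosphorylation (0.14), MHC class II (0.47), Toll-like receptor and NF-kB genes (0.60), immediate early genes (0.01) and heat shock genes (0.45), besides the ribosomal and ER groups. The sign held but the median fell toward 0 by over 1.5 times for B cell and plasma cell genes, as given above, T cell (-0.13), stellate (0.10), erythroid (-0.27), platelet (0.19) and cytokine genes (0.09). It moved away from 0 by over 1.5 times for hepatocyte (2.01), sinusoidal endothelial (1.99), general macrophage (1.22), mast cell (-0.89), cholangiocyte (-0.42), complement (1.42), sterol efflux (1.35), lysosomal (1.06), iron (1.10), fatty acid synthesis (0.60), tricarboxylic acid cycle (0.35), adhesion (1.09), nuclear receptor (0.63) and splicing genes (0.92).

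The diet difference was also compared with that in the caspase-11 knockout. The interaction of diet and genotype gave 0 calls of 10845 genes (0.0%) with limma, and 506 (4.67%) at an unadjusted p under 0.05. The smallest adjusted p among all genes was 0.693. Of the 129 called genes, 124 (96.1%) had the same sign in the knockout libraries, against 7609 (70.2%) of all genes tested. Only 60 of the 129 were also called between the diets in the knockout, so a shared sign does not mean a difference of like size. The 2 contrasts share no libraries, only the estimate of the spread. The column header of the Casp11KO-HFD replicate 2 library differs from its sample title by a missing digit, and its group was taken from the title. Cd5l differed by 3.97 and Derl3 by -2.79 on the log2 scale in the knockout, less than in wild type but without an interaction past the threshold (adjusted p = 0.904 for each). Pdcd1 differed by -0.24 there, against -2.34 in wild type, with an unadjusted interaction p of 0.000128 and an adjusted p of 0.693. For Nr1h3 the values were 0.33 and 2.15 (limma interaction, adjusted p = 0.904).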

How the data were processed

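The libraries were made from total RNA of the liver immune cell fraction (SMARTer Stranded pico kit) and sequenced by single-end reads. Per the labels, reads were aligned with STAR to mm10 (GRCm38.p6). The deposited values are TPM as the authors exported them from Qlucore Omics Explorer, bounded below at 1.01, and are treated here as a score and not as counts, since they are normalized; the labels give a nominal read number for all samples but no counts per library. Strand setting and gene annotation were not given in the sources used here.

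Gene type was taken from RefSeq by symbol (39350 genes) or synonym (9), with 1481 unmatched. The 21708 protein-coding genes were rescaled to 1000000 per library with floor values set to 0 in the total, raised to a common floor (6.79, or 6.96 with WT-NCD replicate 3) and log2-transformed with no pseudocount. A gene was tested (10845 in all) if 2 or more of the 5 wild-type libraries exceeded that floor, with limma 3.58.1 in R 4.3.3, with a trended prior, the spread shared by all 4 groups (11 libraries) and Benjamini-Hochberg adjustment at 0.05. The script was tested on simulated data. P-values set the difference between the diets against the spread between libraries within the 4 groups, the knockout groups included. Named genes were the 15 of smallest p in each direction among called genes outside the published lists, up to 2 called members of smallest p in each list, or its most abundant member where none was called, and checks, less 1 gene that is not reported here. The gene lists and named families were chosen with earlier results of these data known. Other scalings, floors, filters, spreads, a replicate block and single libraries left out were tried.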

Additional observations from a re-analysis of the deposited data

How the results depend on the processing

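The number of genes called between WT-HFD and WT-NCD, 129, became 31 with WT-NCD replicate 3 put back, 1120 (755 higher and 365 lower) with the spread taken from wild-type libraries alone, 211 (20 higher and 191 lower) for TPM not rescaled, 297 with median-ratio scaling, 238 with the most abundant 1% of genes removed, 61 with the deposited floor set to 0 and a pseudocount of 1, 15 at an adjusted p under 0.01, and between 3 and 53 without single libraries. It was 178 with hepatocyte genes left out of the total, an alternative chosen after seeing the data. Without rescaling, the median log2 difference of all genes was -0.74 and 1 gene, Igfbp1, was called for diet by genotype. Whether replicate numbers pair the samples was left undecided. Same-number correlations of deviations were 0.28 and -0.01 for replicates 1 and 2 of wild type, and -0.03, -0.03 and -0.15 with WT-NCD replicate 3 put back. With only 2 WT-NCD libraries in the main fit, their deviations mirror each other, so the correlations cannot show or exclude pairing. The fit with the replicate block gave 211 calls.

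Of the 64 named genes, 41 were called, and none of these reversed under 761 alternative values, of which 515 stayed past the threshold and 246 did not. Called genes did not overlap between the diets. Settings that kept the same values, added a pseudocount or left out single libraries therefore could not turn their sign. For those settings the lack of reversals is no added support. Genes that were not called reversed in 28 cases. With WT-NCD replicate 3 put back, the log2 difference was 1.56 for Lyz2, 0.84 for Irf8, 3.22 for Alb, 1.09 for Gapdh, 0.71 for Cs, 1.07 for Atp5b, 0.89 for Rplp0, 1.11 for Cd74, 0.26 for Nfkbia, 1.43 for Hspa8, 0.10 for Pcna and 1.43 for Ddx5. Without rescaling it was -0.59 for Ly6c2, -0.54 for Spp1, -0.41 for Ftl1, -0.070 for Gpx1 and -0.55 for Bhlhe40, and with the replicate block 0.16 for Alb and -0.13 for Spp1. Without single libraries it ranged from -1.48 to 0.90 for Lyz2, -0.46 to 0.85 for Ly6c2, -0.51 to 0.42 for Alb, -0.15 to 0.65 for Spp1 and -0.21 to 0.11 for Casp4. The cause of these changes was not tested. Without counts per library, the limit that depth sets on single values was not computed.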

Other observations

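Immunoglobulin transcripts lie outside the protein-coding genes tested, and were picked after their values were seen and not tested. On the scale of the protein-coding total, Igha, the heavy chain of immunoglobulin A, was at 41521 and 45638 in WT-NCD replicates 1 and 2 (75.0 in replicate 3) and at 746, 757 and 1746 in WT-HFD. Igkc, the kappa light chain constant region, was at 105770 and 89090 against 6310, 4916 and 10169, and Ighm, the heavy chain of immunoglobulin M, at 5244 and 3880 against 2040, 1537 and 2467. Variable segments (225 genes) summed to 83916 and 72460 against 5005, 5210 and 7058. T cell receptor constant regions overlapped, at 395 and 429 against 350, 328 and 450. Jchain, which joins immunoglobulin A and M into polymers and was tested, was at 7786 and 5785 against 311, 452 and 630 without a call (limma adjusted p = 0.0516).

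Abundant small non-coding RNAs took large and unequal shares of the deposited totals. The U3 RNA made up 3.83% and 2.18% in WT-NCD and 30.4%, 60.1% and 42.7% in WT-HFD, 7SK 13.5% and 15.4% against 5.10%, 3.54% and 5.20%, and 7SL 30.9% and 28.0% against 32.2%, 12.7% and 15.7%.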
